A study of Homo sapiens with 2 samples.

Results

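MILIP, the c-Myc-inducible long noncoding RNA that is also annotated as MAFG-DT, and 9 protein-coding genes around it in chromosome band 17q25.3 were examined in A549 cells after MILIP silencing. The 10 genes are MILIP (ENSG00000265688), MAFG, SIRT7, PCYT2, NPB, PYCR1, MYADML2, ANAPC11, ALYREF and ARHGDIA. They were taken by identifier and symbol from the 60711 genes of the deposited RNA-seq table. The rule of choice was their place in the genome and used no measured value, but earlier results of these data were known when it was set. A549 is an established human lung cancer cell line. Cells were transfected 24 h after seeding with either a control siRNA or the MILIP siRNA si-MILIP.2, a synthetic duplex that directs cleavage of the MILIP transcript, and RNA was harvested 48 h later. There was 1 library per condition, so replicate error is unknown and no test was made, and an effect of this 1 siRNA sequence on other transcripts cannot be told apart from the loss of MILIP. All 5 epithelial markers examined had values above 0 in both libraries, whereas 0 of the 4 markers each of alveolar type 2, immune, fibroblast and endothelial cells did.

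Long noncoding RNAs are transcribed by RNA polymerase II and often start close to, and point away from, a protein-coding gene. Some act in cis, which means that the RNA or its transcription alters genes next to it on the same chromosome, whereas others leave the locus and act elsewhere. Silencing with an siRNA removes the RNA after it has been made and leaves the promoter in place. The question asked of these genes was therefore whether the level of any neighbour differed once MILIP RNA was reduced. The neighbours have unrelated roles. MAFG is a small MAF transcription factor that pairs with CNC and BACH proteins at antioxidant response elements, SIRT7 is a nuclear and nucleolar NAD-dependent deacylase, and PCYT2 makes CDP-ethanolamine for phosphatidylethanolamine synthesis. NPB encodes the precursor of neuropeptide B, PYCR1 carries out the last step of proline synthesis in mitochondria, and MYADML2 is a predicted membrane protein related to MYADM. ANAPC11 is the RING subunit of the anaphase-promoting complex, ALYREF is an adaptor of the TREX complex that hands mRNA over for nuclear export, and ARHGDIA encodes a GDP dissociation inhibitor.

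In GRCh38 with the GENCODE release 29 annotation, MILIP lies on the + strand of chromosome 17 from 81927829 to 81930753. It has 2 exon blocks of 617 and 1278 bases and 2 annotated transcripts of 1895 and 969 bases. MAFG lies on the - strand from 81918270 to 81927714, head to head with MILIP, and 114 bases separate their annotated starts. The 10 genes cover 79.5 kb, with 3 on the + strand and 7 on the - strand. The sequence between the starts of MAFG and MILIP is shown because both genes begin from it. It runs 5′ to 3′ on the + strand, from the base next to MAFG to the base before MILIP, was read from RefSeq promoter sequence of GRCh38.p14, and has the motif CACGTG in capitals.
chr17:81927715-81927828: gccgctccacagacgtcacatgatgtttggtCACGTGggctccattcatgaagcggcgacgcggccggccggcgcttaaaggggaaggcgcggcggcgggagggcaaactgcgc
The stretch is 67.5% G and C. The capitals mark an E-box, the letters that c-Myc and Max recognize, which read the same on both strands. The motif occurs 1 time in these 114 bases, 77 bases before the MILIP start and 31 bases before the MAFG start. Among 35116 RefSeq promoter windows, which reach from 250 bases before to 50 bases after a start, 7.26% hold the motif, and 3.76% hold it in the 114 bases before the start. Promoter windows were matched for 7 of the 10 genes (MILIP, MAFG, PCYT2, MYADML2, ANAPC11, ALYREF and ARHGDIA). The motif was in windows of 3 of them, MILIP and MAFG, which share the stretch above, and ARHGDIA in 1 of its 2 windows. It was in none of the windows of ANAPC11 (4), PCYT2 (2), ALYREF (2) and MYADML2 (1). This count is by gene, whereas the 7.26% is by window. A match of letters is not evidence of binding.

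**Figure D1:**
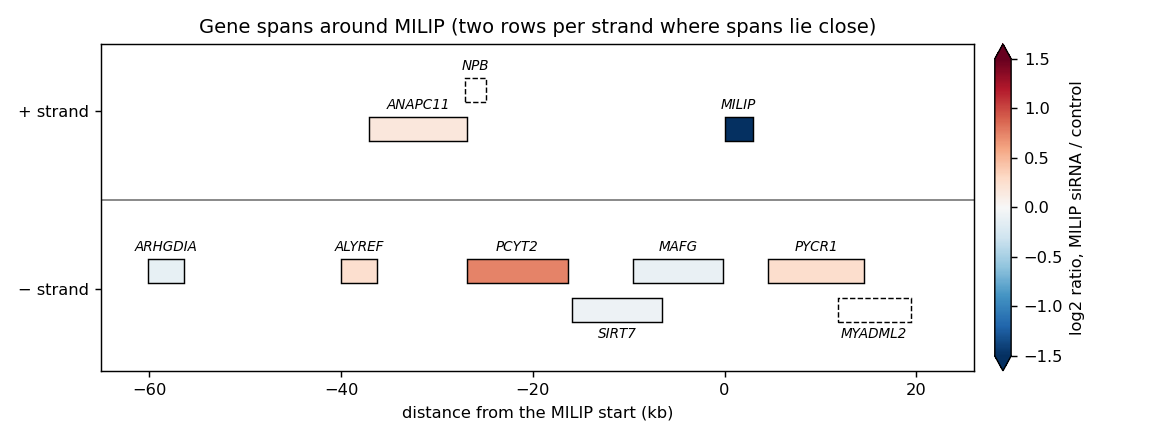
Gene spans of MILIP and its 9 neighbours by distance from the MILIP start in kb (x axis) and by strand (y axis), with color for the log2 ratio of MILIP siRNA over control siRNA and a dashed outline for NPB and MYADML2, which gave no ratio. The darkest span is MILIP, at -2.85, beyond the end of the color scale, and PCYT2 is the only span with a ratio above 0.58.

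The table gives 1 value per gene and library, called the scaled read count here because it is not a whole number of reads. In each library all values above 0 were whole multiples of a fixed step, which was taken as 1 read. On this reading the listed genes held 20300800 reads in the control siRNA library and 19460956 in the MILIP siRNA library. These sums leave out reads not listed for any gene. In the same order 1 read was worth 0.0501 and 0.0503. Genes with fewer than 20 reads were listed at 0. The 95% limits beside a fold are exact Clopper-Pearson limits on the ratio of the values. They cover counting error only. Genes whose mean value was 1 or more were called higher or lower when the values, with 1 added to each, differed by 1.5-fold or more. Across the 13521 such genes 11.1% were higher and 13.8% were lower after MILIP siRNA, 25.0% in all, and the quartiles of the log2 ratios were -0.36 and 0.29. Of the 10 genes 8 passed this filter.

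MILIP itself had a scaled read count of 29.5 with control siRNA, from 588 reads, and of 3.22 with MILIP siRNA, from 64 reads. The MILIP siRNA value was 9.15-fold lower than the control value (limits 7.06 to 12.04). On the log2 scale with 1 added the ratio was -2.85. This was the second lowest ratio among the 13521 genes. The gene with the lower ratio, named here after its value was seen, was ADIPOR2, an adiponectin receptor gene on chromosome 12, at 166.8 and 21.5. The 5 genes with control values nearest to that of MILIP had log2 ratios between -0.84 and 0.64. No exon base of MILIP lies in an exon of another GENCODE gene. RefSeq, however, extends MAFG on the opposite strand to 81931244, which is 491 bases beyond the end of MILIP, and reads of such a longer MAFG transcript could not be told apart from MILIP reads where strand was not used.

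Genes around MILIP overlap each other, and how reads in overlapping exons were assigned is not given in the sources used here. Of 322 genes annotated as antisense whose every exon base is shared with a gene on the opposite strand, 5 (1.55%) had an entry in the value columns, 0 entries included, as against 1138 (49.6%) of 2294 antisense genes with no shared exon base. The share of exon bases that lies in exons of another gene is therefore given for each neighbour.

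**Figure D2:**
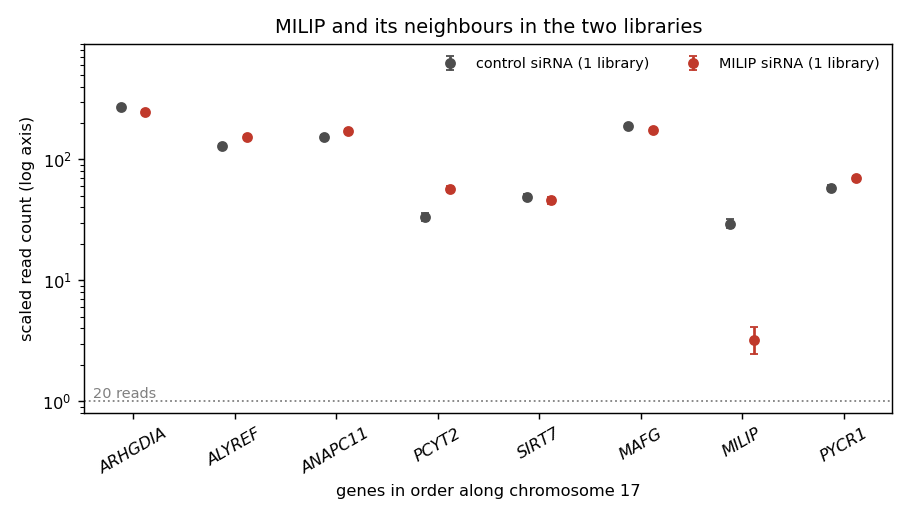
Scaled read counts on a log axis of the 8 genes with reads in both libraries, in chromosome order, with control siRNA in grey and MILIP siRNA in red (1 library each). Bars are exact 95% Poisson limits of the reads, and the dotted line is 20 reads. MILIP is far apart between the libraries (29.5 and 3.22), and PCYT2 is the next most separated pair (33.4 and 56.7).

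MAFG, whose start is the closest to that of MILIP, was at almost the same level in the libraries. Its scaled read count was 190.1 with control siRNA and 176.0 with MILIP siRNA. The ratio of the values was 0.926 (limits 0.884 to 0.970, from 3796 and 3501 reads). The log2 ratio of -0.11 was above those of 43.1% of all genes, near the middle of the distribution. Of the MAFG exon bases 6.30% are shared, with SIRT7 and with an antisense gene inside MAFG. That antisense gene, ENSG00000264769, which RefSeq names MAFG-AS1, a symbol it also lists as a synonym of MILIP, was barely detected, at 1.65 and 1.86 (33 and 37 reads). SIRT7 follows MAFG on the same strand and its gene span overlaps that of MAFG by 3054 bases. It had 48.8 and 46.1, a ratio of 0.944 with limits from 0.862 to 1.03, so a difference was not detectable at this depth. Only 1.71% of its exon bases are shared.

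PCYT2 was the only gene of the 9 neighbours past 1.5-fold. It lies 474 bases beyond SIRT7 on the same strand, and its start is 16.4 kb from the MILIP start. The scaled read count was 33.4 with control siRNA and 56.7 with MILIP siRNA, from 667 and 1127 reads. The MILIP siRNA value was 1.70-fold higher (limits 1.54 to 1.87), with a log2 ratio of 0.74, above the ratios of 93.1% of all genes. Of its exon bases 28.1% are shared, with NPB and ANAPC11 on the opposite strand. With the trend of the ratios with GC content removed, its log2 ratio was 0.51, short of 1.5-fold. NPB lies on the opposite strand and overlaps the 3′ end of PCYT2. It had no value in either library, and 100% of its exon bases are shared with PCYT2 or ANAPC11.

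ALYREF and ANAPC11, on opposite strands with overlapping 5′ ends and with starts 36.2 and 37.0 kb from that of MILIP, were both slightly higher. ALYREF had 128.1 with control siRNA and 152.5 with MILIP siRNA, which was 1.19-fold higher (limits 1.13 to 1.26). ANAPC11 had 152.7 and 172.4, 1.13-fold higher (limits 1.07 to 1.19). Their log2 ratios of 0.25 and 0.17 lay between the quartiles of all genes. The exon bases shared with other genes were 3.94% for ALYREF and 7.67% for ANAPC11. ARHGDIA, the farthest of the neighbours at 56.4 kb, had 270.6 with control siRNA and 248.0 with MILIP siRNA. The ratio was 0.916 (limits 0.881 to 0.953), and the log2 ratio with 1 added was -0.13. Of its exon bases 26.2% are shared with an antisense gene.

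On the other side of MILIP, PYCR1 points toward it, and 1630 bases separate the 3′ ends of the genes. PYCR1 had 57.9 with control siRNA and 69.5 with MILIP siRNA, 1.20-fold higher (limits 1.11 to 1.30), and 29.7% of its exon bases are shared. Its log2 ratio of 0.26 fell to 0.03 with the GC trend removed. MYADML2, which overlaps the PYCR1 span, was listed at 0 in both libraries, that is below 20 reads, and no ratio was taken.

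Per kilobase of annotated exon, the scaled read count in the control library was highest for ARHGDIA (93.2) and ALYREF (81.4). ANAPC11 (37.9) and MAFG (36.4) followed, then PYCR1 at 20.1, MILIP at 15.5, SIRT7 at 7.93 and PCYT2 at 4.84. MILIP RNA was thus at a lower level per length than MAFG before silencing, and with MILIP siRNA it was the lowest of the 8 genes, at 1.70, below SIRT7 at 7.49 and PCYT2 at 8.22. The order of the levels of the other 7 genes differed between the libraries in 2 places: after MILIP siRNA, ALYREF (96.9) was above ARHGDIA (85.4), and PCYT2 was above SIRT7. These levels depend on the annotated exon length, which includes exons that A549 cells may not use.

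**Figure D3:**
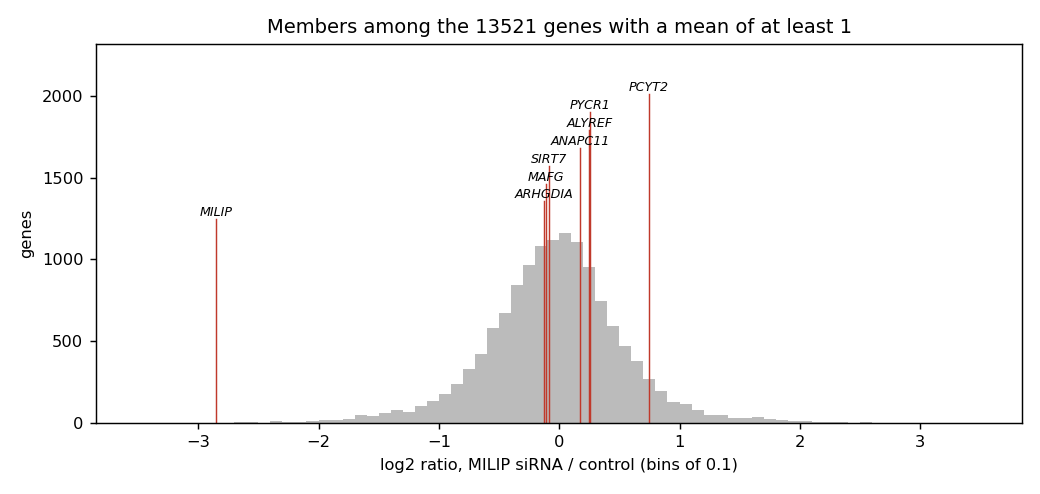
Distribution of the log2 ratios (MILIP siRNA over control siRNA) of 13521 genes in bins of 0.1, with the number of genes on the y axis and a red line at each of the 8 members with a ratio (line heights only separate the labels). MILIP stands at the left end, PCYT2 is on the upper slope, and the other 6 genes are in the central peak.

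Among the 7 neighbours that passed the filter, 1 was called higher and 0 lower, and 4 had log2 ratios above 0. The background shares were 11.1% and 13.8%, so neither count sets these genes apart from other genes. The counting limits of all 7 lay within 2-fold, a difference that 8.11% of all genes passed (3.48% higher and 4.62% lower). The ratios of all genes differed by base composition: the median log2 ratio was -0.21 among the 20% of genes with the lowest transcript GC content and 0.18 among the 20% with the highest. The 8 members with a ratio have a GC content of 56.5% to 65.5%, above the median of 48.5% over all genes. With the trend removed MILIP was at -3.04, MAFG at -0.21, SIRT7 at -0.14 and ARHGDIA at -0.36, and 0 of the 7 neighbours were past 1.5-fold in either direction.

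To see whether the genes beyond the 9 neighbours differed, all genes with a start near that of MILIP were taken by position alone. Within 100 kb on either side, 14 genes besides MILIP had a mean of at least 1. Of these 3 (21.4%) were called higher and 0 lower, beside 11.1% and 13.8% of all genes, and 9 had log2 ratios above 0. With 14 genes and 1 library per condition no difference from other genes was tested. The higher genes were PCYT2, P4HB and LRRC45, of which PCYT2 was short of 1.5-fold with the GC trend removed. P4HB, a protein disulfide isomerase of the endoplasmic reticulum and a subunit of prolyl 4-hydroxylase, had 452.7 with control siRNA and 791.8 with MILIP siRNA, 1.75-fold higher (limits 1.70 to 1.795). LRRC45, a centrosomal linker protein, had 29.1 and 56.1, 1.93-fold higher (limits 1.75 to 2.14). CENPX, which starts beside LRRC45 and shares exon bases with it, encodes a kinetochore protein and had 98.3 and 137.0. ASPSCR1, a UBX-domain protein that tethers GLUT4 vesicles, had 36.9 and 51.8. MCRIP1 was at 82.7 and 69.9, and the noncoding gene ENSG00000263731 at 6.56 and 5.33.

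Within 500 kb, 38 genes besides MILIP had a mean of at least 1, of which 5 (13.2%) were higher and 1 (2.63%) was lower, beside 11.1% and 13.8% of all genes. Besides PCYT2, P4HB and LRRC45 the higher genes were TSPAN10 and SLC25A10. TSPAN10, a tetraspanin, was at 4.56 and 8.85 (91 and 176 reads), and SLC25A10, the mitochondrial dicarboxylate carrier, at 14.8 and 23.7. The lower gene was RAC3, a small GTPase, at 16.5 and 9.50, a ratio of 0.577 (limits 0.480 to 0.692). Of the 38 genes 26 had log2 ratios above 0, and their median was 0.14, beside -0.03 for all genes. These genes are also rich in G and C, with a median of 62.4%. With the GC trend removed their median was -0.036. At that setting 3 of the 38 genes were higher, LRRC45, P4HB and TSPAN10, a smaller share than the 10.9% of all genes. RAC3 was the 1 lower gene, and the share of lower genes over all genes at that setting is not given here. Without the GC trend removed, the genes past 1.5-fold lay between 16.4 and 290.7 kb from the MILIP start.

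**Figure D4:**
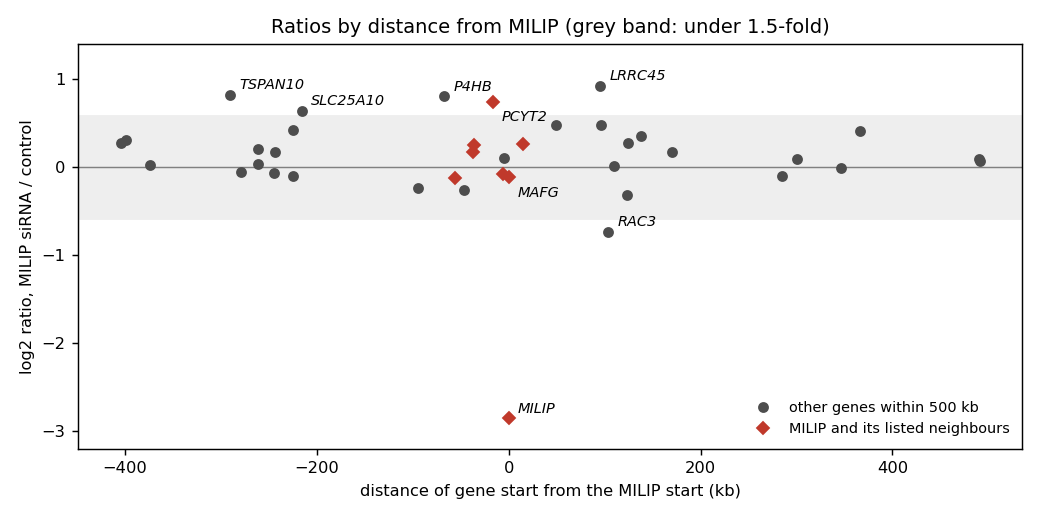
Log2 ratio of MILIP siRNA over control siRNA (y axis) of genes whose mean was 1 or more by distance of their start from the MILIP start in kb (x axis), with MILIP and its listed neighbours as red diamonds and other genes as grey circles. The grey band spans ratios under 1.5-fold. MILIP lies alone at -2.85, and the 6 named genes outside the band besides it lie between 0.64 and 0.93 or, for RAC3, at -0.73.

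The neighbours were next set beside genes of the same family or pathway elsewhere in the genome, from 9 lists. The list of ARHGDIA entered the totals and is not described further. Over all lists 67 partners had a mean of at least 1, of which 5 (7.46%) were higher and 11 (16.4%) were lower, beside 11.1% and 13.8% of all genes, so the share of lower partners was near that background. Of the 17 partners of ANAPC11 in the anaphase-promoting complex, which marks mitotic regulators for destruction, 5 were lower and 1 was higher, with a median log2 ratio of -0.31. Over all genes 13.8% were lower and 11.1% higher, and the median was -0.03, and with 17 genes and 1 library per condition no difference from other genes was tested. ANAPC1, the scaffold subunit, had 85.0 with control siRNA and 38.0 with MILIP siRNA, and ANAPC5 had 169.2 and 80.1. CDC23 had 63.3 and 40.2, the activator CDC20 had 175.1 and 114.7, and the ubiquitin-conjugating enzyme UBE2S had 375.0 and 241.5. ANAPC15 was the higher one, at 3.26 and 5.43 (65 and 108 reads), and FZR1, the other activator, was at 52.1 and 69.0. ANAPC11 was at 1.13-fold, and 5 of these 17 partners had log2 ratios above 0.

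The partners of PYCR1 in proline metabolism had a median of 0.42 over 7 genes, with 2 higher, beside 11.1% of all genes. The count of lower ones is left out, as 1 of these genes is not reported here. With so few genes no difference from other genes was tested. OAT, ornithine aminotransferase, was at 98.1 and 85.7. PRODH, which starts proline breakdown, was higher at 3.96 and 7.04, from 79 and 140 reads. PRODH2, which acts on hydroxyproline, was higher at 1.20 and 7.49, also from few reads (24 and 149). Of the 9 measured genes of the CDP-ethanolamine and CDP-choline pathway besides PCYT2, 0 were called higher and 1 lower, beside 11.1% and 13.8% of all genes. Of these 9 genes 3 had log2 ratios above 0, and the median was -0.14. CEPT1, which joins either head group to diacylglycerol, was lower at 14.6 and 6.64, and PCYT1A, the choline counterpart of PCYT2, was at 60.0 and 40.6. The highest were CHKA, a choline kinase, at 22.4 and 28.7, and PEMT at 16.9 and 21.6.

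For the next lists, which are also small, no difference from all genes was tested, of which 11.1% were higher and 13.8% lower. Of the other sirtuins 1 of 6 was higher, SIRT2, the mainly cytosolic member, at 33.2 and 65.2. SIRT5 was next at 10.2 and 11.6, and the lowest were SIRT6 at 32.7 and 22.3 and SIRT1 at 66.6 and 48.7. Among 12 TREX and export partners of ALYREF 1 was lower, THOC3, at 53.0 and 18.8, and THOC7 was next at 38.3 and 25.3. The highest were THOC6 at 34.1 and 37.1 and DDX39A at 152.5 and 159.2. The median over these 12 was -0.08, whereas ALYREF was at 0.25, both without the GC trend removed. MAFK, a small MAF paralog of MAFG, was at 119.9 and 141.9. Among the 6 partners with a mean of at least 1, NFE2L3, a CNC factor, was lower, at 64.4 and 32.7, and NFE2L2, which encodes NRF2, was at 121.4 and 95.3, while NFE2L1 was at 199.8 and 224.2. NPBWR1, a receptor for neuropeptides B and W, was higher at 2.70 and 5.48, from few reads (54 and 109), and MYADM was at 164.8 and 126.1. NPBWR1 and MYADM were the only partners of NPB and MYADML2 with a mean of at least 1.

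**Figure D5:**
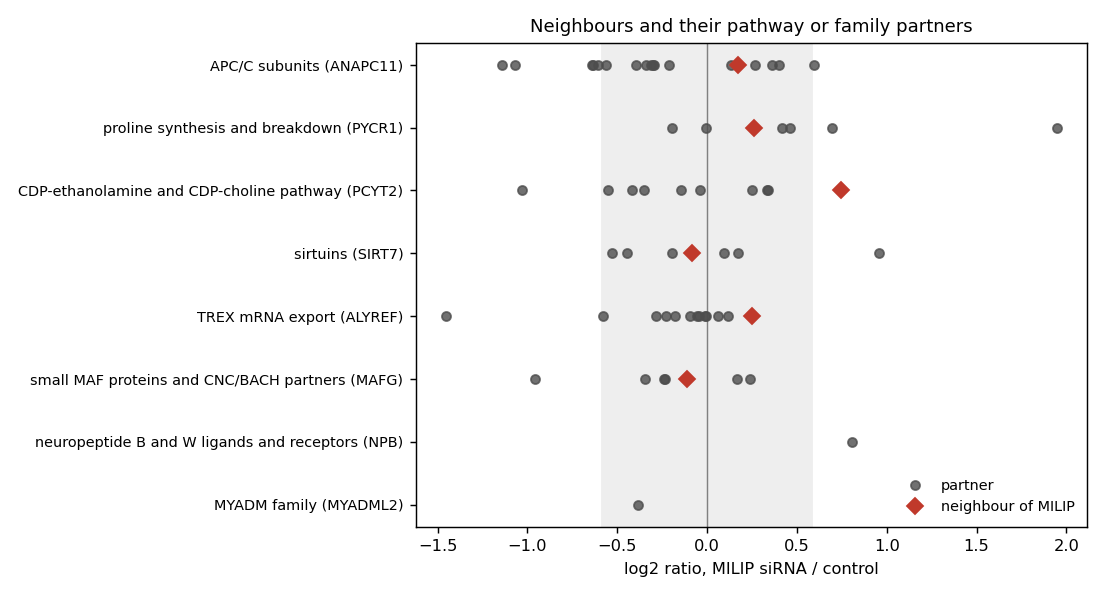
Log2 ratio of MILIP siRNA over control siRNA (x axis) of genes whose mean was 1 or more in 8 family or pathway lists (y axis, with 1 proline metabolism partner not shown), with the neighbour of MILIP in each list as a red diamond and its partners as grey circles; the grey band spans ratios under 1.5-fold. In the CDP-ethanolamine and CDP-choline list PCYT2 is to the right of all 9 partners, and in the APC/C list most partners are to the left of ANAPC11. The GC trend was not removed here, and GC content differs within lists: PCYT2 has 64.6%, and its partners run from 34.4% (CHPT1) to 62.9% (PEMT).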

How the data were processed

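RNA-seq of A549 cells with 1 control siRNA and 1 MILIP siRNA library (20300800 and 19460956 reads summed over the listed genes) was used. The submitters' processing notes name TopHat2 2.0.12, HTSeq 0.6.1 and hg38; annotation, strand use and scaling are not given in the sources used here. The authors deposited a scaled read count per gene and library (a signal), a log2 fold change, p-values and q-values; the last 3 hold the authors' own comparison and were not used. Of 60711 genes 27856 had values, and all values above 0 were whole multiples of 1 step within 0.001 reads. Log2 ratios used a pseudocount of 1 over genes whose mean was 1 or more, with 95% Clopper-Pearson limits on ratios without the pseudocount. No test across genes was possible with 1 library per condition. Of the 13521 genes 13398 matched GENCODE release 29 (GRCh38), which gave positions, exons and the GC content of the longest transcript; the GC trend was the median of 50 bins. Named genes are the 10 members, genes with a mean of at least 1 within 100 kb, genes past 1.5-fold within 500 kb, and the highest and lowest 2 and those past 1.5-fold in each list. Results for 1 list and 1 partner gene are not reported here. Members and lists were chosen with earlier results of these data known. Calculations were tested on simulated data. Tools were matplotlib 3.10.9, scipy 1.17.1, pandas 2.3.3, numpy 2.4.6 and Python 3.11.15.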

Additional observations from a re-analysis of the deposited data

How the results depend on the processing

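No paired analysis was possible because just 1 library stands on either side, which also means that none could be left out. The log2 ratio of MILIP stayed between -3.19 and -2.81 under all alternatives run, and the sign of the ratio of each neighbour was kept. Of the neighbours, 0 were higher at 2-fold, beside 3.48% of all genes, in place of 1. With the GC trend removed 0 were higher at 1.5-fold, beside 10.9% of all genes. A count over the 4 genes with under 10% of exon bases shared, chosen after seeing the data, also gave 0. That cut leaves out PCYT2, at 28.1% shared, so its result was fixed in advance and tells nothing about PCYT2. Within 500 kb, 0 genes were higher and 0 lower at 2-fold, beside 3.48% and 4.62% of all genes. Without a filter on low values 7 of 61 genes were higher and 2 lower, with a median of 0.00. Most genes added at this setting were listed at 0 in both libraries, which fixes their ratio at 0, so this median tells nothing about the region. The shares over all genes without the filter are not given here. With the GC trend removed 3 of 38 genes were higher, beside 10.9% of all genes, and 1 was lower, with a median of -0.036. For this region the removal of the GC trend was also added after seeing the data. A window of 1000 kb held 60 genes in place of 38, of which 10 (16.7%) were higher and 2 (3.33%) lower, beside 11.1% and 13.8% of all genes. Of the 67 partners, 1 was higher and 5 were lower at 2-fold, beside 3.48% and 4.62% of all genes. With a mean of at least 5, 2 partners were higher and 11 lower, and the share over all genes at that setting is not given here. Scaling by the median of ratios or to equal totals, the latter also added later, shifted all ratios by under 0.1 and changed no count by more than 1.5 times. Genes under 20 reads cannot be compared.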
